A study of Mus musculus with 14 samples.

Results

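Resident macrophages of the gut wall release growth factors that act on the cells around them, and 10 of these ligands were described across genotypes: *Igf1*, *Hgf*, *Pdgfb*, *Pdgfc*, *Vegfa*, *Vegfb*, *Hbegf*, *Areg*, *Ereg* and *Bmp2*. They were chosen by name, as factors through which macrophages support epithelium, vessels and enteric neurons, and with earlier results of these data known. Counts of members set beside those of all genes are therefore descriptions only. The members make up 10 of the 24982 genes in the count table, where symbols stand in capitals. The study sorted mature macrophages from the colon and cecum lamina propria of 5-week-old C57BL/6 mice and sequenced their RNA, 1 library per mouse, to ask what the loss of the interleukin-10 receptor alpha chain (*Il10ra*), and the added loss of the chemokine receptor *Ccr2*, does to these cells. Every mouse, controls included, carried *Cdcs1*, a locus that makes C57BL/6 mice prone to colitis. Mice with *Cdcs1* and no other labelled change are called WT, those that are also *Il10ra*-/- are IL10RAKO, those that are *Il10ra*-/- and *Ccr2*-/- are DKO, and those that are *Ccr2*-/- alone are CCR2KO. The knockouts are not restricted to macrophages, so each knockout library comes from an animal that lacks the gene in every cell. For these genotypes the study reports robust spontaneous colitis in IL10RAKO mice by this age and less severe colitis in DKO mice. It reports no histologic signs of colitis in wild-type mice. Loss of the genes and inflamed tissue therefore cannot be told apart in the comparisons below. The sort kept live leukocytes (CD45+) with the macrophage markers CD64+ and CD11b+ that were MHCII+ and Ly6C-, and left out Ly6G+ and CD103+ cells.

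IGF1 and HGF signal through receptor tyrosine kinases and favour survival and repair of epithelium. The PDGF dimers act on fibroblasts and pericytes, and the VEGF proteins on endothelium. Amphiregulin, epiregulin and HB-EGF are membrane-anchored members of the EGF family that have to be cut from the cell surface before they reach a distant EGF receptor. BMP2 made by macrophages of the muscle layer acts on enteric neurons, which in turn sustain those macrophages.

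WT, IL10RAKO and DKO were each represented by 4 mice in the comparisons, identified by the sample numbers of the labels: WT 4, 5, 10 and 13, IL10RAKO 1, 2, 7 and 8, and DKO 3, 9, 12 and 14. Another WT mouse, number 11, and the only CCR2KO mouse, number 6, are absent from the normalized table that the authors deposited beside the counts, and their values are given without a test. The 12 libraries held 13085287 to 21216468 reads in genes, so that 3 reads corresponded to 0.124 to 0.211 CPM (reads scaled to the same library size by the TMM method, as are all values in CPM below). WT 11 held 12153000 reads and 11670 genes with at least 1 read, against 13485 or more in the 12 libraries. Mean *Il10ra* was 284.5 CPM in WT against 7.41 in IL10RAKO and 5.31 in DKO, and mean *Ccr2* was 593.1, 475.8 and 5.67 CPM in the same order. The labels give no sex, litter or batch, so the p-values below measure only the spread between these mice.

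*Vegfa*, the main angiogenic factor, had the largest difference among the members that passed a test, and *Areg*, an EGF receptor ligand made by many leukocytes during tissue repair, was the other gene that rose in both mutants. The 250 bases before their start sites are printed because these were the members that rose and both are in the RefSeq promoter table (GRCm38.p6, the assembly called mm10). The sequences run 5′ to 3′ on the strand of the gene, *Areg* on the plus strand at chr5:91139349-91139598 and *Vegfa* on the minus strand at chr17:46032378-46032627.
Areg: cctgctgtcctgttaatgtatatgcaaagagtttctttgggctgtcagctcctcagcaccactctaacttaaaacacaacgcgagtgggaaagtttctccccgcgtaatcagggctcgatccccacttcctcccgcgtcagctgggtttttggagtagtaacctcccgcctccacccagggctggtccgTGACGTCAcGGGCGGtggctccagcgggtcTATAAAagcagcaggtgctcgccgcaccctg
Vegfa: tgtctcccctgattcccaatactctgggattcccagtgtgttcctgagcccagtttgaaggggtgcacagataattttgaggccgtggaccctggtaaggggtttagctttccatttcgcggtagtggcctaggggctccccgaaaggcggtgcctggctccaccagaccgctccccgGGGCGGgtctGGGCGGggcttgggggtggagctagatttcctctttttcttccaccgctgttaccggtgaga
Capitals mark matches to any of 6 short motifs searched on both strands, namely the STAT motif TTCNNNGAA, the AP-1 motif TGANTCA, the hypoxia response core ACGTG, the cAMP response element TGACGTCA, the GC box GGGCGG and the TATA box TATAAA. None of these motifs contains another, and matches were allowed to overlap. *Areg* held TGACGTCA 61 bases, GGGCGG 52 bases and TATAAA 31 bases before the start, counted to the first base of the match. *Vegfa* held GGGCGG 72 and 62 bases before the start. A second *Vegfa* start within the gene has a window of its own, at chr17:46025164-46025413 and not printed, which held ACGTG on the opposite strand 211 bases before that start and GGGCGG 158 bases before it. The *Igf1* window, at chr10:87860861-87861110, also belongs to a start within the gene, and held TGANTCA 37 bases before that start. In the windows of the other matched members, *Vegfb* held GGGCGG on either strand between 180 and 104 bases before its start. *Hgf* and *Pdgfc* held none of the 6 motifs. The same 250 bases before the start were searched in all 32851 promoter windows of the table. Of these, 1.55% held TGACGTCA, 32.7% GGGCGG, 12.4% TATAAA, 7.02% TTCNNNGAA, 6.75% TGANTCA and 16.6% ACGTG. These matches describe letters in the windows and say nothing of binding. Of the members, 6 were matched to the table (*Igf1*, *Hgf*, *Pdgfc*, *Vegfa*, *Vegfb* and *Areg*), and *Pdgfb*, *Hbegf*, *Ereg* and *Bmp2* are named only.

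All 10 members passed the filter on low counts. In IL10RAKO against WT, *Vegfa* and *Areg* were higher and *Igf1* and *Bmp2* were lower by edgeR's quasi-likelihood test with Benjamini-Hochberg adjustment over 13136 genes, and 6 members did not pass. That is 4 of 10, where 15.8% of all tested genes passed, 8.7% as higher and 7.1% as lower. In DKO against WT the same 4 genes passed in the same directions and *Pdgfb* was lower as well, 5 of 10 where 18.5% of all tested genes passed, 9.23% as higher and 9.22% as lower. An unadjusted p under 0.05 was found for 7 of the 10 in IL10RAKO (29.1% of all tested genes) and for 5 in DKO (31.3%). The mutant and WT ranges did not overlap for 4 members in IL10RAKO (18.2% of all tested genes) and 5 in DKO (22.2%), the same members that passed. Over the 10 members the median log2 fold change was -0.66 for IL10RAKO and -0.61 for DKO, and over all genes tested it was -0.07 and -0.06. Both comparisons use the same WT mice. In DKO against IL10RAKO none of the 10 passed, where 0.0457% of all tested genes passed, and none had an unadjusted p under 0.05, where 2.95% of all tested genes did. DESeq2 also called 0 members in that comparison.

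**Figure D1:**
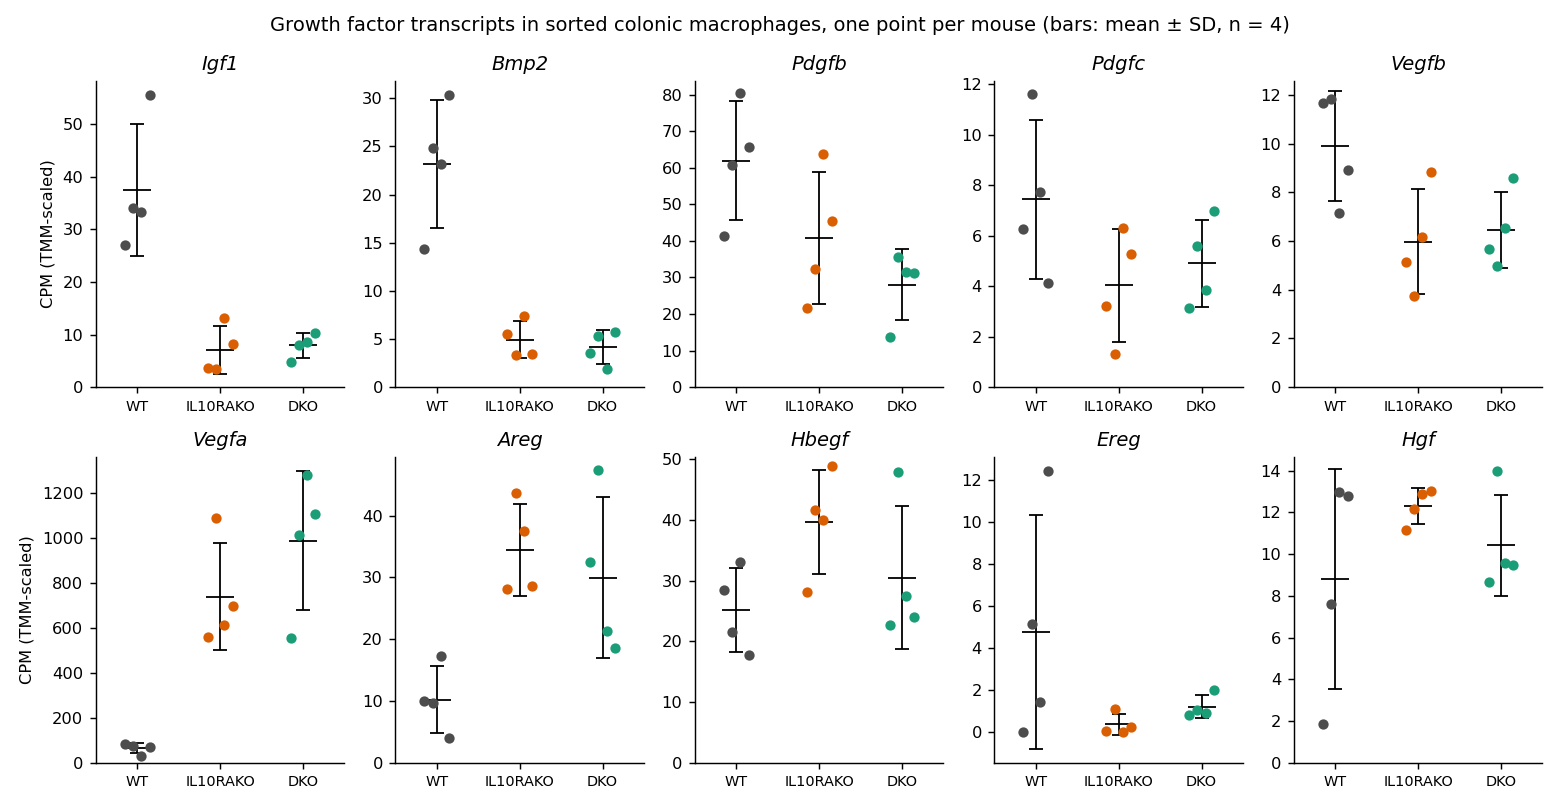
Expression of the 10 growth factor genes, in CPM on a linear axis with its own scale in each panel, with 1 point per mouse for WT, IL10RAKO and DKO and the mean ± SD of 4 mice as bars. The WT points of *Igf1* and *Bmp2* sit above all mutant points, those of *Vegfa* and *Areg* below them, and the remaining panels show overlap between WT and at least 1 mutant group.

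*Vegfa* lies at chr17:46016993-46032369 on the minus strand. It measured 82.3, 76.7, 31.1 and 70.1 CPM in WT 4, 5, 10 and 13. In IL10RAKO 1, 2, 7 and 8 it measured 559.3, 1091, 616.0 and 697.7 CPM, and in DKO 3, 9, 12 and 14 it measured 554.5, 1016, 1282 and 1107 CPM. Every mutant library stood far above every WT library, and the mutant groups overlapped each other. The means were 65.1 ± 23.1, 740.9 ± 239.9 and 989.7 ± 310.4 CPM (SD, n = 4). By edgeR's quasi-likelihood test the log2 fold change was 3.51 in IL10RAKO (SE 0.345, 95% confidence interval 2.77 to 4.25, adjusted p = 1.03e-05), an 11.4-fold difference, and 3.93 in DKO (SE 0.352, adjusted p = 4.05e-06), a 15.2-fold difference.

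*Areg* lies at chr5:91139599-91148432 on the plus strand. It measured 9.93, 9.61, 17.3 and 4.00 CPM in WT 4, 5, 10 and 13. IL10RAKO 1, 2, 7 and 8 held 28.2, 43.6, 37.5 and 28.7 CPM, and DKO 3, 9, 12 and 14 held 32.5, 47.4, 21.4 and 18.6 CPM. The highest WT library lay just under the lowest DKO library. Neither mutant group overlapped WT, and the mutant groups overlapped each other. The means were 10.2 ± 5.44, 34.5 ± 7.43 and 30.0 ± 13.1 CPM. By edgeR's quasi-likelihood test the log2 fold change was 1.75 in IL10RAKO (SE 0.380, adjusted p = 0.00586), a 3.36-fold difference, and 1.55 in DKO (SE 0.378, adjusted p = 0.0107), a 2.92-fold difference. These calls depended on the WT mice used: WT 11 stood at 29.5 CPM, within the mutant range, and with it added to the fit the edgeR log2 fold changes were 1.30 (adjusted p = 0.0755) and 1.10 (adjusted p = 0.123).

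*Hbegf*, the EGF family member that also serves macrophages as a chemotactic and wound factor, lies on the minus strand of chromosome 18. It measured 28.4, 21.6, 33.01 and 17.7 CPM in WT 4, 5, 10 and 13. The IL10RAKO mice 1, 2, 7 and 8 gave 28.1, 41.7, 40.0 and 48.9 CPM, and the DKO mice 3, 9, 12 and 14 gave 22.6, 47.9, 27.4 and 24.1 CPM. Both mutant groups overlapped WT, IL10RAKO through mouse 1 and DKO through all mice but number 9. The edgeR log2 fold change was 0.65 in IL10RAKO (adjusted p = 0.121) and 0.27 in DKO (adjusted p = 0.524). WT 11 held 167.5 CPM, above all 12 libraries.

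*Ereg*, an EGF receptor ligand near *Areg* on the same strand at chr5:91074622-91093646, was the member with the fewest reads. WT 4, 5, 10 and 13 held 0, 88, 35 and 187 reads, or 0, 5.16, 1.45 and 12.5 CPM. IL10RAKO 1, 2, 7 and 8 held 1, 18, 0 and 4 reads, and DKO 3, 9, 12 and 14 held 15, 17, 13 and 41 reads. WT was spread from no read to the highest value of the 12, so that the WT range enclosed both mutant ranges. The edgeR log2 fold change was -3.69 in IL10RAKO (SE 1.33, adjusted p = 0.0763) and -1.96 in DKO (SE 1.21, adjusted p = 0.289). The count of 0 in WT 4 allows up to 3 reads by counting error alone. An antisense gene, *Gm19610*, covers 3.42% of the *Ereg* exon bases.

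*Igf1*, a secreted growth factor typical of resident tissue macrophages, lies at chr10:87858265-87937042 on the plus strand. It measured 26.98, 34.1, 33.4 and 55.6 CPM in WT 4, 5, 10 and 13. In IL10RAKO 1, 2, 7 and 8 it measured 3.62, 3.43, 13.1 and 8.12 CPM, and in DKO 3, 9, 12 and 14 it measured 4.75, 8.09, 8.57 and 10.4 CPM. All WT libraries lay above all mutant libraries, and IL10RAKO 7 was the highest of the mutants. The means were 37.5 ± 12.5, 7.07 ± 4.57 and 7.95 ± 2.35 CPM. By edgeR's quasi-likelihood test the log2 fold change was -2.40 in IL10RAKO (SE 0.410, adjusted p = 0.00110), 5.27-fold lower, and -2.24 in DKO (SE 0.407, adjusted p = 0.00152), 4.71-fold lower.

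*Bmp2*, a ligand of the TGF-beta superfamily, lies at chr2:133552159-133562885 on the plus strand. It measured 14.4, 24.8, 23.2 and 30.4 CPM in WT 4, 5, 10 and 13. IL10RAKO 1, 2, 7 and 8 held 5.57, 3.36, 7.38 and 3.43 CPM, and DKO 3, 9, 12 and 14 held 3.59, 5.35, 1.90 and 5.73 CPM. All 8 mutant libraries lay below all WT libraries. The means were 23.2 ± 6.63, 4.94 ± 1.92 and 4.14 ± 1.77 CPM. By edgeR's quasi-likelihood test the log2 fold change was -2.22 in IL10RAKO (SE 0.375, adjusted p = 9.83e-04), 4.67-fold lower, and -2.48 in DKO (SE 0.379, adjusted p = 3.99e-04), 5.56-fold lower.

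*Pdgfb*, whose product recruits pericytes to vessels, lies at chr15:79995874-80014977 on the minus strand. It measured 41.2, 60.7, 80.4 and 65.6 CPM in WT 4, 5, 10 and 13. The IL10RAKO mice 1, 2, 7 and 8 gave 21.6, 32.3, 63.8 and 45.4 CPM, and the DKO mice 3, 9, 12 and 14 gave 13.7, 35.5, 31.4 and 31.3 CPM. DKO lay below WT in every mouse, while IL10RAKO 7 and 8 reached into the WT range. The edgeR log2 fold change was -1.15 in DKO (SE 0.340, adjusted p = 0.0303), 2.21-fold lower, and -0.60 in IL10RAKO (adjusted p = 0.257). The difference between DKO and IL10RAKO was itself -0.54 (95% confidence interval -1.27 to 0.18). The DKO call rested on single mice: without any one of WT 5, WT 10, WT 13, DKO 3, DKO 12 or DKO 14 the edgeR adjusted p lay between 0.0537 and 0.0793.

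*Pdgfc*, a ligand of the PDGF alpha receptor, lies at chr3:81036416-81214040 on the plus strand. It measured 6.25, 11.6, 7.75 and 4.13 CPM in WT 4, 5, 10 and 13. In IL10RAKO 1, 2, 7 and 8 it measured 3.20, 1.31, 6.32 and 5.28 CPM, and in DKO 3, 9, 12 and 14 it measured 3.15, 5.60, 3.87 and 6.97 CPM. The 3 groups overlapped, with edgeR log2 fold changes of -0.88 in IL10RAKO (adjusted p = 0.229) and -0.60 in DKO (adjusted p = 0.406). A gene on the opposite strand, *Gm16000*, covers 2.89% of its exon bases.

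*Vegfb*, a ligand of the VEGF receptor FLT1 linked to fatty acid uptake by endothelium, lies at chr19:6982473-6987651 on the minus strand. It measured 11.6, 11.8, 7.17 and 8.92 CPM in WT 4, 5, 10 and 13. IL10RAKO 1, 2, 7 and 8 held 5.15, 3.74, 6.17 and 8.85 CPM, and DKO 3, 9, 12 and 14 held 5.69, 4.98, 6.54 and 8.60 CPM. Only IL10RAKO 8 and DKO 14 entered the WT range. The edgeR log2 fold change was -0.73 in IL10RAKO (unadjusted p = 0.0337, adjusted p = 0.134) and -0.62 in DKO (adjusted p = 0.191), so that the 2 VEGF genes among the members stood on opposite sides of 0 in both mutants, with *Vegfb* not past the threshold.

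*Hgf*, the ligand of the MET receptor, lies at chr5:16553495-16620152 on the plus strand and shares 6.74% of its exon bases with *Gm43489*. It measured 1.86, 7.62, 13.0 and 12.8 CPM in WT 4, 5, 10 and 13. The IL10RAKO mice 1, 2, 7 and 8 gave 11.1, 12.1, 12.9 and 13.0 CPM, and the DKO mice 3, 9, 12 and 14 gave 8.67, 14.0, 9.56 and 9.49 CPM. WT spanned 6.96-fold and IL10RAKO 1.17-fold, and the WT range reached to the top of IL10RAKO within 0.1 CPM. The edgeR log2 fold change was 0.48 in IL10RAKO (adjusted p = 0.488) and 0.24 in DKO (adjusted p = 0.739).

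**Figure D2:**
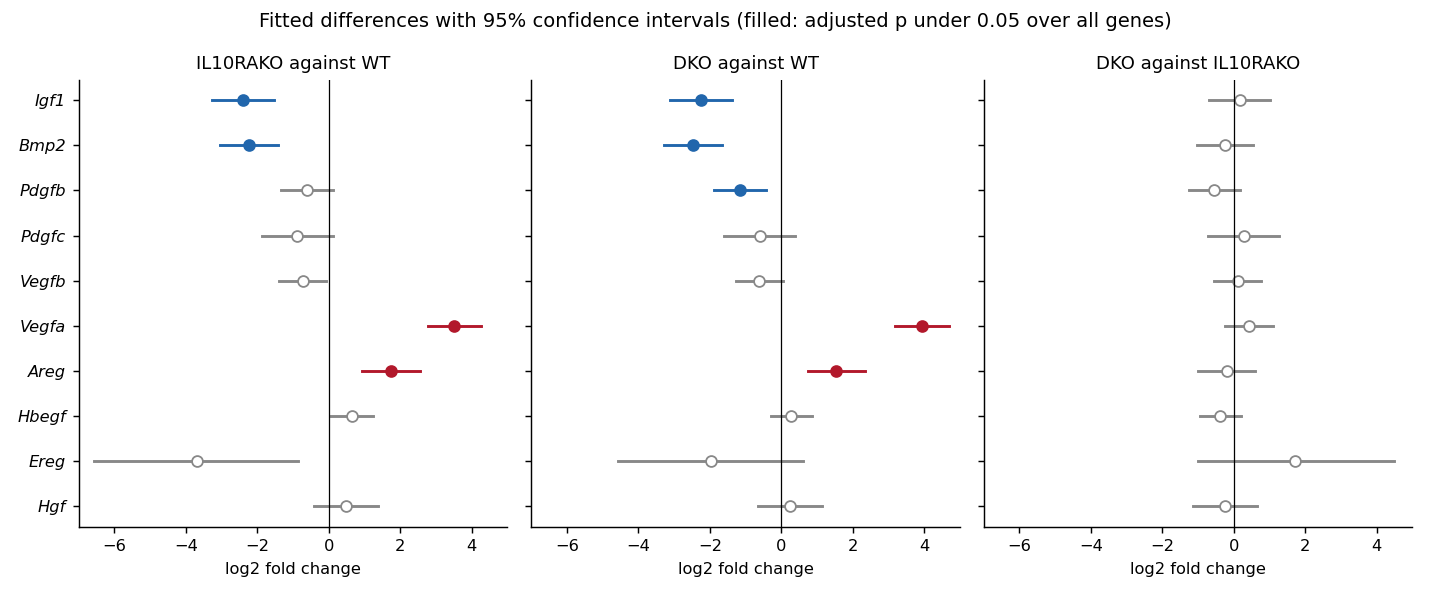
Log2 fold changes of the 10 members on the x axis with 95% confidence intervals, from 1 edgeR fit over 12 libraries, for IL10RAKO against WT, DKO against WT and DKO against IL10RAKO. Filled points passed an adjusted p of 0.05 over all genes, and in the third panel every interval crosses 0.

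The comparison of DKO with IL10RAKO asks what the loss of *Ccr2* adds. All 10 members overlapped between these groups, where 2.41% of all tested genes did not. The interval of the difference was -0.69 to 1.02 on the log2 scale for *Igf1*, -1.04 to 0.54 for *Bmp2* and -0.25 to 1.09 for *Vegfa*. It was -0.99 to 0.58 for *Areg*, -0.95 to 0.20 for *Hbegf* and -0.55 to 0.77 for *Vegfb*. *Hgf* (-1.14 to 0.66) and *Pdgfc* (-0.72 to 1.28) were less well bounded, and *Ereg*, with -1.0 to 4.49, was hardly bounded at all. A change of 1 on this scale in either direction lay outside the interval for *Hbegf*, *Vegfb* and *Areg* only.

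Levels can be ranked between genes only per length of exon. In WT, *Vegfa* (15.2 ± 5.40 CPM per kb) and *Pdgfb* (14.9 ± 3.89 CPM per kb) were the most abundant, followed by *Areg* at 8.40, *Bmp2* at 6.52, *Vegfb* at 6.16, *Hbegf* at 5.21 and *Igf1* at 3.79 CPM per kb. *Pdgfc*, *Hgf* and *Ereg* followed at 1.46, 1.23 and 1.15 CPM per kb. Of the 9 neighbouring pairs in this order, only *Igf1* and *Pdgfc* had ranges that did not overlap between mice. In IL10RAKO *Vegfa* reached 172.9 ± 56.0 CPM per kb, *Areg* came next at 28.4, and *Pdgfb* at 9.80 and *Hbegf* at 8.21 followed. *Vegfb* at 3.72 and *Hgf* at 1.71 came before *Bmp2* at 1.39, *Pdgfc* at 0.792, *Igf1* at 0.713 and *Ereg* at 0.0881 CPM per kb. The DKO order was the same as that of IL10RAKO, from *Vegfa* at 231.0 ± 72.4 and *Areg* at 24.7 CPM per kb down to *Igf1* at 0.803 and *Ereg* at 0.292 CPM per kb. In both mutants *Vegfa* stood clear of *Areg*, and *Areg* clear of *Pdgfb*, in every mouse. *Hbegf* and *Vegfb*, and *Igf1* and *Ereg*, were apart in IL10RAKO but overlapped in DKO, and *Vegfb* stood clear of *Hgf* in both.

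**Figure D3:**
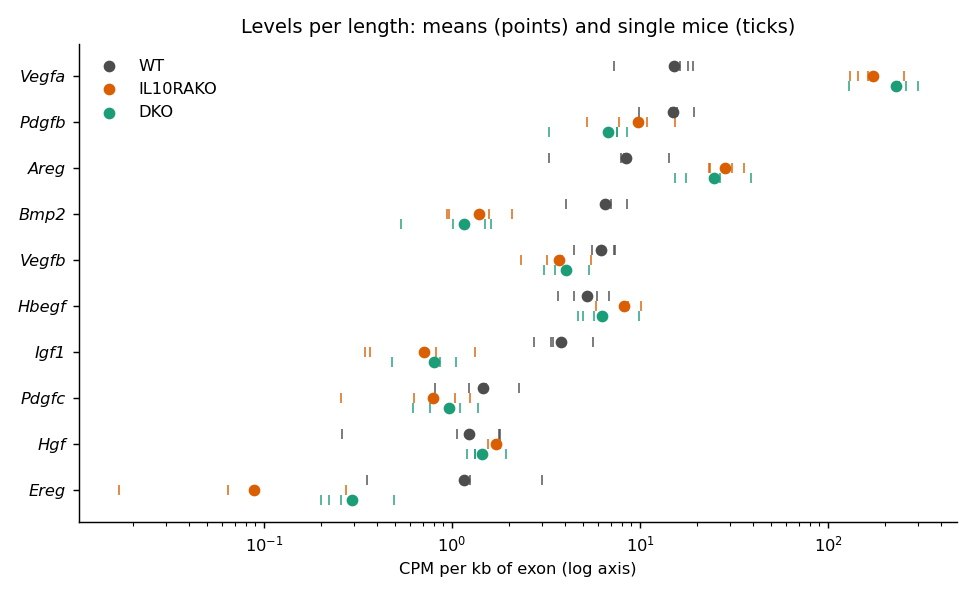
Levels of the members in CPM per kb of exon on a log axis, with 1 tick per mouse and 1 point per group mean. *Vegfa* stands apart from the other genes in IL10RAKO and DKO, *Igf1* and *Bmp2* are shifted left from WT in both mutants, and the *Ereg* values of 0 in WT 4 and IL10RAKO 7 cannot be drawn on this axis.

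For each of the 5 members that passed a test, the 2 genes with the nearest profile were found from log2 CPM centred over the 12 libraries, by the root mean square difference. *Vegfa* was nearest to *Slc16a3*, which encodes a lactate transporter, at 0.32 and *Ptgs2*, which encodes cyclooxygenase 2, at 0.34, where its own SD over the libraries was 1.92. Mean *Ptgs2* was 407.3 CPM in WT but 4868 CPM in IL10RAKO and 4888 CPM in DKO. *Igf1* was nearest to *Itsn1*, an endocytic scaffold, at 0.37 and *Cd36*, a fatty acid and lipoprotein receptor, at 0.37, with an SD of 1.32. *Bmp2* was nearest to *Nr1d1*, a circadian repressor, at 0.36 and *Sult1a1*, a sulfotransferase, at 0.40, with an SD of 1.29. *Areg* was nearest to *Ccdc71l* at 0.40 and *Stx11*, a syntaxin, at 0.42, with an SD of 1.04. *Pdgfb* was nearest to *Frmd4b* at 0.24 and *Itga9*, an integrin subunit, at 0.25, with an SD of 0.73. These distances are descriptions over libraries that share their genotype.

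Receptors, related ligands, binding proteins and proteases of the same pathways were followed in 9 lists with 92 genes, of which 64 had enough reads to be tested. These lists, too, were chosen with earlier results of these data known. In IL10RAKO against WT, 8 were higher and 17 lower by edgeR, the median difference at -0.72 on the log2 scale. Of all tested genes 8.7% were higher and 7.1% lower there, with a median of -0.07. In DKO against WT 10 were higher and 19 lower, with a median of -0.86. Of all tested genes 9.23% were higher and 9.22% lower there, with a median of -0.06. None passed in DKO against IL10RAKO. With scaling by library totals alone the split was 5 higher and 20 lower in IL10RAKO and 6 and 24 in DKO, and the median of all tested genes moved to -0.38 and -0.32.

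Of the IGF list, 8 of 12 genes were tested and only binding proteins passed, 4 lower in IL10RAKO and 5 in DKO. These proteins hold IGF in the extracellular space and set how much reaches the receptor. *Igfbp7* fell from 124.0 ± 52.8 CPM in WT to 12.7 ± 2.88 in IL10RAKO and 23.0 ± 5.21 in DKO, with edgeR log2 fold changes of -3.29 (adjusted p = 6.78e-06) and -2.43 (adjusted p = 6.09e-05). *Igfbp3* fell from 40.1 to 4.57 and 6.58 CPM and *Igfbp5* from 8.94 to 0.764 and 1.01 CPM. *Igfbp4*, the most abundant of them, averaged 190.3, 79.2 and 60.8 CPM, and *Igfbp6* averaged 5.58, 2.16 and 0.658 CPM and passed in DKO. The receptor gene *Igf1r*, at 4.44, 3.88 and 5.46 CPM, did not pass.

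All 7 genes of the HGF list were tested, and 2 were higher in each mutant. *Met*, the HGF receptor, rose from 6.62 ± 4.40 CPM in WT to 32.2 ± 17.0 in IL10RAKO and 48.8 ± 21.3 in DKO, with edgeR log2 fold changes of 2.27 (adjusted p = 0.00448) and 2.87 (adjusted p = 8.50e-04), while *Hgf* itself did not pass. *Spint1*, an inhibitor of the proteases that activate HGF, averaged 283.3, 470.2 and 461.4 CPM. Its calls were lost under 8 of 20 alternatives in each comparison.

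Of the PDGF list, 4 of 5 genes were tested and 3 were lower in both mutants. *Pdgfa* fell from 20.9 ± 7.17 CPM to 7.65 ± 3.70 and 5.97 ± 1.70, with edgeR log2 fold changes of -1.45 (adjusted p = 0.0141) and -1.81 (adjusted p = 0.00337). The receptor genes, which are typical of fibroblasts and pericytes, were lower too: the reads for *Pdgfra* numbered 66 to 148 in WT libraries, 1 to 9 in those of IL10RAKO and 1 to 15 in those of DKO, and *Pdgfrb* averaged 13.6, 3.90 and 5.03 CPM.

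Of the VEGF list, 7 of 8 genes were tested. The neuropilins, co-receptors that bind VEGF as well as semaphorins, moved apart. *Nrp2* rose from 28.9 ± 8.93 CPM to 68.2 ± 19.1 in IL10RAKO and 151.6 ± 53.9 in DKO, with edgeR log2 fold changes of 1.24 (adjusted p = 0.0147) and 2.39 (adjusted p = 1.46e-04). *Nrp1* fell from 185.8 ± 13.4 CPM to 116.9 ± 17.3 and 101.0 ± 23.4, with log2 fold changes of -0.67 (edgeR adjusted p = 0.0191) and -0.88 (edgeR adjusted p = 0.00323). *Flt1*, the receptor for VEGFB and VEGFA, averaged 17.0, 12.5 and 11.0 CPM and did not pass.

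Of the EGF list, 8 of 12 genes were tested. *Nrg1*, a neuregulin that binds ERBB3 and ERBB4, rose from 5.60 ± 1.99 CPM to 68.3 ± 32.5 in IL10RAKO and 59.5 ± 3.71 in DKO, with edgeR log2 fold changes of 3.61 (adjusted p = 1.54e-05) and 3.41 (adjusted p = 2.26e-05). *Nrg2* averaged 3.43, 9.24 and 8.29 CPM and was called higher, but lost the call under 10 of 20 alternatives in IL10RAKO and 14 of 20 in DKO. *Tgfa* had 22 to 99 reads per WT library but only 0 to 2 per IL10RAKO library and 0 to 15 per DKO library, and was lower in IL10RAKO by edgeR (adjusted p = 0.00484). *Erbb3* averaged 11.7, 5.42 and 6.27 CPM and was lower in IL10RAKO, losing the call under 6 of 20 alternatives. *Egfr* itself had at most 75 reads in any of the 12 libraries and did not pass.

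The machinery that releases EGF ligands from the membrane held 6 tested genes of 7, with 1 higher and 1 lower in IL10RAKO and 3 higher and 1 lower in DKO. The iRhom genes, whose products carry the sheddase ADAM17 to the cell surface, moved in opposite directions. *Rhbdf2* rose from 74.2 ± 10.1 CPM to 166.5 ± 46.1 and 189.7 ± 48.9, with edgeR log2 fold changes of 1.17 (adjusted p = 0.00313) and 1.35 (adjusted p = 9.52e-04), and *Rhbdf1* fell from 30.4 ± 7.65 CPM to 5.40 ± 3.23 and 4.59 ± 1.93, with -2.49 (edgeR adjusted p = 0.00159) and -2.73 (edgeR adjusted p = 7.43e-04). *Adam17* averaged 185.6, 264.4 and 286.1 CPM and *Adam9* 107.0, 161.5 and 181.7 CPM, and both were called higher in DKO. The *Adam17* call was lost under 6 of 20 alternatives.

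Of the list of proteases that process growth factors, 6 of 8 genes were tested, and 1 rose and 1 fell in each mutant. *Plaur*, the urokinase receptor, rose from 353.4 ± 67.4 CPM to 1291 ± 145.8 and 1189 ± 181.9, with edgeR log2 fold changes of 1.87 (adjusted p = 8.07e-06) and 1.75 (adjusted p = 1.37e-05). *Pcsk6*, a proprotein convertase, had 78 to 177 reads per WT library but 0 to 5 per IL10RAKO library and 0 to 8 per DKO library, and was lower in both (edgeR adjusted p = 0.00196 and 0.00190).

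Of the BMP list, 14 of 19 genes were tested, with 1 higher and 4 lower in IL10RAKO and 1 higher and 7 lower in DKO. The ligand genes *Bmp4*, *Bmp5* and *Bmp6* were lower in both mutants, as *Bmp2* was. *Bmp6* fell from 4.38 ± 1.94 CPM to 0.783 ± 0.110 and 1.01 ± 0.212, with edgeR log2 fold changes of -2.47 (adjusted p = 0.00286) and -2.11 (adjusted p = 0.00644), and *Bmp4* and *Bmp5* averaged 6.62 and 4.99 CPM in WT and at most 1.12 CPM in either mutant. *Acvr2b*, a receptor gene, averaged 7.53, 3.31 and 3.10 CPM, and lost its IL10RAKO call under 9 of 20 alternatives. *Id2*, which encodes an inhibitor of basic helix-loop-helix factors and is a BMP target in several cell types, rose from 215.9 ± 18.2 CPM to 524.3 ± 146.2 and 439.8 ± 85.0, with edgeR log2 fold changes of 1.28 (adjusted p = 6.12e-04) and 1.03 (adjusted p = 0.00266). The remaining lower calls in DKO were *Id1* at 4.53 CPM against 11.2 in WT, *Id3* at 53.3 CPM against 89.2, and *Bmp1* at 0.441 CPM against 3.55, genes named after their values were seen.

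Of the FGF and neurotrophic list, 4 of 14 genes were tested. *Gas6*, a bridging ligand for the TAM receptors that recognize dying cells, fell from 238.3 ± 20.8 CPM to 20.8 ± 14.0 and 17.0 ± 3.77, with edgeR log2 fold changes of -3.51 (adjusted p = 6.63e-05) and -3.81 (adjusted p = 3.13e-05). *Gdnf* and *Fgf18* had no read in the 12 libraries, which allows up to 3 reads in each. *Fgf7* had at most 11 reads, *Fgf10* at most 10 and *Bdnf* at most 19 in any one library.

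**Figure D4:**
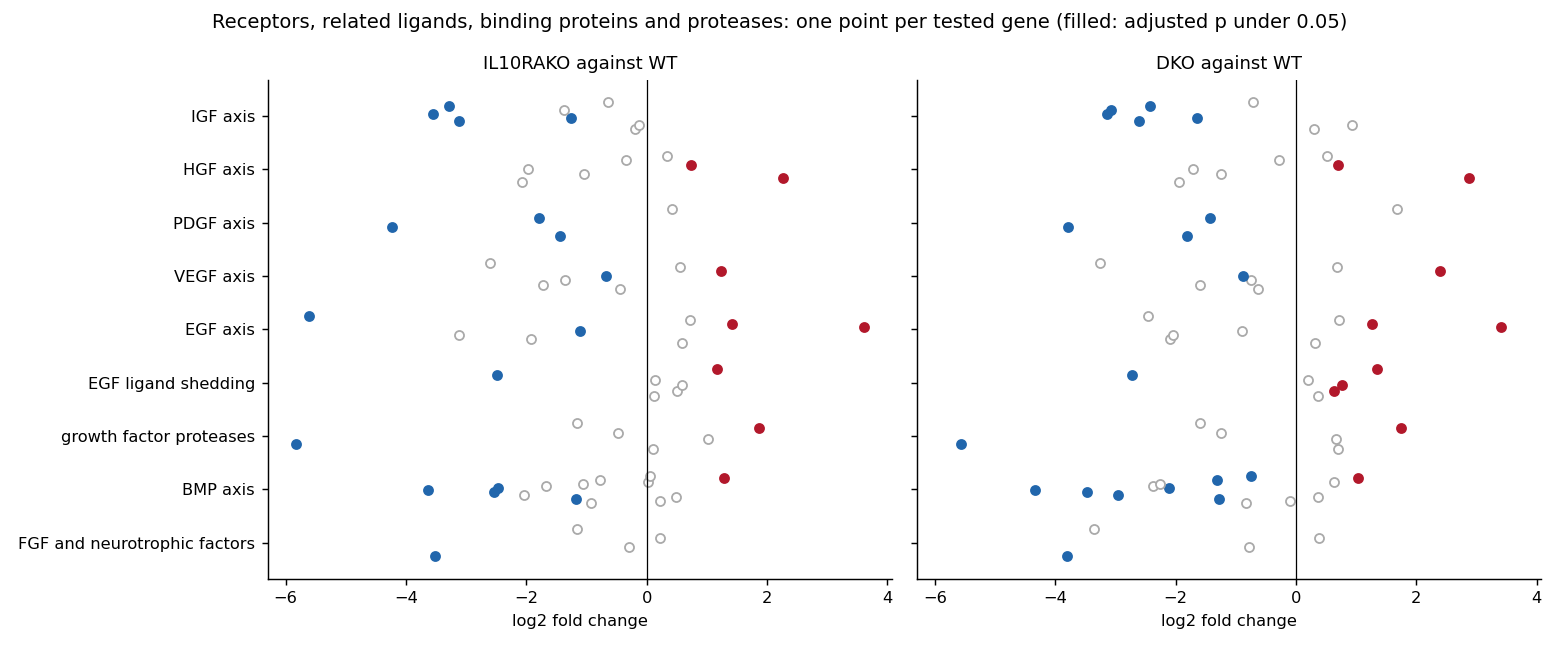
Log2 fold changes on the x axis of the 64 tested genes of the 9 pathway lists in IL10RAKO and DKO against WT, 1 point per gene, filled where the adjusted p was under 0.05. Binding proteins of the IGF list lie to the left, and *Nrg1*, *Met*, *Nrp2*, *Rhbdf2*, *Plaur* and *Id2* are the filled points farthest right of their rows.

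Marker genes of other cells moved with the genotypes, and their part in the results above was not tested. In bulk RNA, fewer cells of one type and less RNA per cell cannot be told apart. The 10 general macrophage markers summed to 11471 to 18593 CPM over WT mice. Their sums were 14523 to 22433 CPM over IL10RAKO mice and 13616 to 20919 CPM over DKO mice. Among them, *Ptprc* (CD45), *Fcgr1* (CD64) and *Itgam* (CD11b) were present in every group. No MHCII gene was in the lists, so that part of the gate was not examined. *Ly6c2*, one of the monocyte markers below, encodes a Ly6C protein, for which the gate was negative. Its lowest and highest WT libraries held 5.80 and 7.64 CPM. Those of IL10RAKO held 38.4 and 176.6 CPM, and those of DKO 74.9 and 89.0 CPM. The 8 markers of resident macrophages summed to 1198 to 1518 CPM over WT mice, to 122.9 to 380.3 over IL10RAKO mice and to 119.5 to 194.9 over DKO mice, with 7 of 8 lower in each mutant, and the groups did not overlap. The exception was *Timd4*, a marker of long-lived gut macrophages, which did not pass. It averaged 15.7 ± 1.38 CPM in WT, 28.6 ± 27.2 CPM in IL10RAKO and 23.5 ± 12.7 CPM in DKO. Its IL10RAKO libraries ran from 13.6 to 69.3 CPM. *Igf1*, *Bmp2*, *Gas6* and *Igfbp4* moved in the same direction as this list, and also as the fibroblast and the muscle and glia lists below. WT 11 held 726.7 CPM of the resident macrophage markers, below the fitted WT mice. Its *Igf1* at 124.3 CPM was above theirs, and how these values relate was not tested. The 6 fibroblast markers summed to 294.2 to 577.1 CPM over WT mice, to 14.99 to 53.7 over IL10RAKO mice and to 16.1 to 67.0 over DKO mice, all 6 lower in both mutants, beside the lower *Igfbp3*, *Igfbp5*, *Igfbp7*, *Bmp4*, *Bmp5*, *Pdgfra* and *Pdgfrb*. *Pdgfra* is one of those 6 markers. The 6 muscle and glia markers summed to 21.8 to 120.4 CPM in WT and at most 6.67 in IL10RAKO and 7.10 in DKO, with *Sox10* averaging 1.20 CPM in WT.

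The 5 monocyte markers summed to 122.5 to 184.6 CPM over WT mice. The sums were 366.8 to 1048 CPM over IL10RAKO mice and 431.7 to 698.4 CPM over DKO mice. Of these markers 2 of 5 were higher in each mutant, as *Vegfa* and *Areg* were, and some neutrophil and dendritic cell markers rose too. The CCR2KO mouse, with 1 library, held 386.2 CPM of monocyte markers, of which *Plac8* made up 266.9 CPM. That sum lay near the lower end of the IL10RAKO range and below all DKO mice. Its *Vegfa* at 34.5 CPM and *Areg* at 4.34 CPM lay within the WT range, and how these values relate was not tested. The 6 neutrophil markers summed to 2.70 to 11.9 CPM over WT mice, to 13.3 to 122.8 over IL10RAKO mice and to 58.0 to 86.0 over DKO mice, with 4 higher, and *S100a9* had no read in WT. The 6 dendritic cell markers summed to 215.7 to 1028 CPM over WT mice, to 1429 to 1862 over IL10RAKO mice and to 1018 to 1777 over DKO mice, mostly through *Ccr7* at 505.7, 1530 and 1356 CPM. The innate lymphoid and regulatory T cell list stands for cells that are another source of amphiregulin. It summed to 47.5 to 67.8 CPM over WT mice, to 64.5 to 102.1 over IL10RAKO mice and to 51.9 to 85.1 over DKO mice. Of its 6 genes, 1 was higher and 1 lower in each mutant. In WT, IL10RAKO and DKO, *Foxp3* averaged 15.6, 14.5 and 13.3 CPM and *Ctla4* 8.36, 26.7 and 20.9 CPM. The part of such cells in the *Areg* values was not tested. Of the 6 endothelial markers, 2 were lower in IL10RAKO and 3 in DKO, with sums of 66.9 to 215.5 CPM (WT), 63.4 to 100.4 CPM (IL10RAKO) and 44.1 to 73.0 CPM (DKO). No epithelial, B and plasma cell, or mast cell and eosinophil marker passed in either mutant. B and plasma cell RNA was present in all groups. Its 5 markers summed to 452.1 to 1677 CPM over WT mice, to 338.1 to 944.3 over IL10RAKO mice and to 403.4 to 1676 over DKO mice. In the CCR2KO mouse they summed to 2489 CPM. In the T and NK cell list 1 marker was higher in DKO. WT 10, which had the highest *Pdgfb*, *Areg*, *Hbegf* and *Hgf* and the lowest *Vegfa* and *Vegfb* of the 4 WT libraries, held 1210 CPM of epithelial markers, where the other 3 held 51.1 to 190.4 CPM. WT 11, with more *Areg* and *Hbegf* than any of these 4, held 2995 CPM of epithelial markers.

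**Figure D5:**
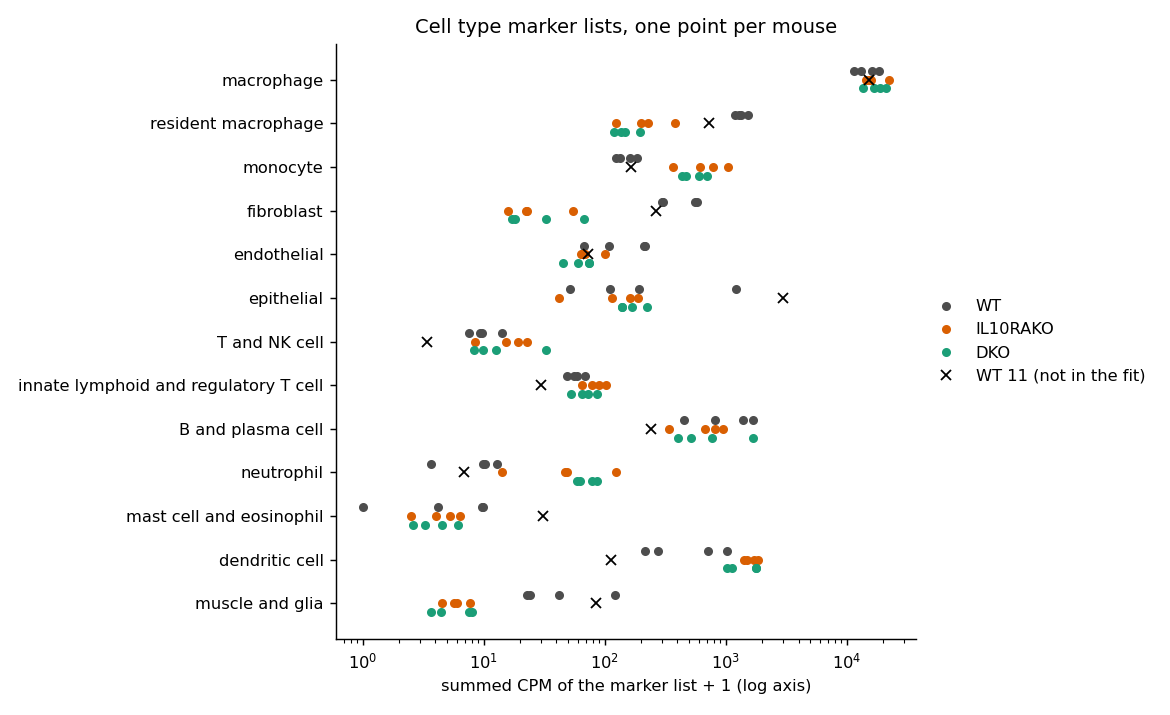
Summed CPM, plus 1, of each of 13 marker lists on a log axis, 1 point per mouse by genotype and a cross for WT 11. The WT points lie right of the mutant points for resident macrophage, fibroblast and muscle and glia markers and left of them for monocyte and neutrophil markers, and WT 11 has the most epithelial marker RNA.

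In WT 11, *Vegfa* stood at 60.6 CPM and *Bmp2* at 15.8 CPM, within the range of the 4 WT libraries, as did *Ereg* with no read. *Hgf* at 0.440, *Pdgfc* at 0.0733 and *Vegfb* at 3.08 CPM lay below that range, and *Igf1* at 124.3, *Pdgfb* at 138.8, *Hbegf* at 167.5 and *Areg* at 29.5 CPM lay above it.

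The CCR2KO mouse had no labelled change in *Il10ra* and gave 1 library with no replicate. In it *Vegfa* stood at 34.5 CPM, *Areg* at 4.34, *Hbegf* at 25.6, *Ereg* at 2.57 and *Igf1* at 39.3 CPM. *Pdgfb* stood at 40.2, *Pdgfc* at 7.46, *Vegfb* at 2.57, *Hgf* at 5.78 and *Bmp2* at 10.9 CPM. *Vegfa*, *Areg*, *Hbegf*, *Ereg*, *Igf1*, *Pdgfc* and *Hgf* fell within the range of the 4 WT libraries, and *Pdgfb*, *Bmp2* and *Vegfb* lay below it.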

How the data were processed

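RNA from sorted colonic macrophages of 14 mice (5 WT, 4 IL10RAKO, 4 DKO, 1 CCR2KO) was converted to cDNA with SmartSeq v4 and sequenced by the authors. Per the study's methods and the labels, bcl2fastq 2.20 wrote the reads, STAR 2.5.1b aligned them to mm10 and counted them, names were harmonized with biomaRt, and edgeR 3.34.0 was used for normalization. The gene annotation and strand setting are not given in the sources used here, so overlapping genes were not separated. The authors deposited raw read counts for 24982 genes. They also deposited normalized pseudocounts, treated here as a score because they are rescaled counts, for 13338 genes in 12 libraries.

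The count table was tested with edgeR 4.0.16 (R 4.3.3). Genes with enough reads by genotype (filterByExpr, minimum count 10) numbered 13136. Libraries were scaled by TMM, and WT, IL10RAKO and DKO (n = 4 each) entered 1 quasi-likelihood fit (glmQLFit), with glmQLFTest for each pair of genotypes. Benjamini-Hochberg adjustment ran over all 13136 genes, with 0.05 as the threshold. The authors' table decided which 12 libraries were fitted, and WT 11 and CCR2KO 6 were left out. CPM are TMM-scaled, and CPM per kb divide by the merged exon length in GENCODE vM21 (GRCm38). Totals of 13085287 to 21216468 reads set the counting precision, and limits on a count of 0 cover counting error only. The fit was tested on simulated data.

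The members and all gene lists were chosen with earlier results of these data known. All members were named, along with up to 3 called genes per list and direction and the 2 nearest profiles of each called member. Alternatives were DESeq2 1.42.0, its size factors, library totals, no filter, edgeR's newer deviance, fits of 2 genotypes, WT 11 added, limma 3.58.1 on log2 of the pseudocounts plus 1, and each library left out. Figures used Python 3.11.15, pandas 2.3.3 and matplotlib 3.10.9.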

Additional observations from a re-analysis of the deposited data

Results flagged for a closer look

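WT 11, the WT library outside the comparisons, stood above all 4 fitted WT libraries in 4 of the 10 growth factor genes. It held 124.3 CPM of *Igf1*, where the 4 held 26.98 to 55.6 CPM, and 138.8 CPM of *Pdgfb*, where they held 41.2 to 80.4 CPM. It held 167.5 CPM of *Hbegf*, where they held 17.7 to 33.01 CPM, and 29.5 CPM of *Areg*, where they held 4.00 to 17.3 CPM. It stood below all 4 in *Hgf* at 0.440 CPM, *Pdgfc* at 0.0733 CPM and *Vegfb* at 3.08 CPM, and within their range in *Vegfa*, *Bmp2* and *Ereg*. The same library held 2995 CPM of epithelial markers and the fewest detected genes of the 14 libraries, and the part of these in its growth factor values was not tested.

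A single library far from the rest of its group was sought in 40 groups of 4 or 5 libraries with Dixon's ratio, which chance passes in about 1 of 20 groups, and 2 were found. *Hbegf* in WT 11, at 167.5 CPM, stood apart from the other 4 WT libraries. *Hgf* in DKO 9, at 14.0 CPM, stood apart from the other DKO libraries, which held 8.67 to 9.56 CPM.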

How the results depend on the processing

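The number of members that passed was 4 in IL10RAKO against WT and ranged from 3 with WT 11 added to 6 with library totals, and from 4 to 5 with single libraries left out. It was 5 in DKO against WT, with a range of 4 to 5 in both kinds of alternative, and 0 in DKO against IL10RAKO throughout. *Vegfa*, *Igf1* and *Bmp2* kept their direction and passed under all 20 alternatives in both comparisons with WT. *Areg* lost its calls only with WT 11 added. *Vegfb* passed in IL10RAKO under library totals (-1.05, edgeR adjusted p = 0.0277), and *Ereg* passed there under 5 of 20 alternatives. The counts of pathway genes, whose alternatives were chosen after seeing the data, ranged from 21 to 31 in IL10RAKO and from 20 to 35 in DKO.

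Values that changed sign all belonged to differences that did not pass. With WT 11 added, *Hbegf* was -0.43 in IL10RAKO and -0.81 in DKO, and *Hgf* in DKO against WT was -0.033 under library totals. With single libraries left out, the log2 fold changes in DKO against WT ranged from -0.087 (without WT 4) to 0.50 for *Hgf* and from -0.021 (without DKO 9) to 0.44 for *Hbegf*. In DKO against IL10RAKO they ranged from -0.065 (without IL10RAKO 2, and -0.051 without IL10RAKO 1) to 0.67 for *Igf1*, from -0.012 (without IL10RAKO 2) to 0.61 for *Pdgfc*, from -0.059 (without DKO 14, and -0.058 without IL10RAKO 2) to 0.36 for *Vegfb* and from -0.45 to 0.029 (without IL10RAKO 7) for *Bmp2*. The causes were not tested. The study describes its controls as littermates housed together, but the labels give no litter, so no paired analysis was possible. With 4 mice a group, the standard error of a member's log2 fold change in IL10RAKO against WT ranged from 0.269 to 1.33, and *Ereg*, the member with the fewest reads, had the highest.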
